A study of Capra hircus with 6 samples.

Results

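The genes described here are those that drive and time the cell cycle and copy DNA: cyclins and their kinases, the kinase inhibitors, the proteins that license and fire replication origins, the replicative DNA polymerases, and the kinases, checkpoint and centromere proteins of mitosis. The rule reads gene symbols and uses no ratio or test, but GTSE1 enters it by its own name and not through a family. A gene entered when a probe with a single symbol matched the name patterns of these families (CCNA to CCNH, CDK, CDC, MCM, ORC, POLA, POLD, POLE, BUB, AURK, PLK, CENP, PCNA, TOP2A and GTSE1, without CDC42), and the probe with the highest mean signal stood for a gene with several. That gave 80 genes, on 83 probes, of 6535 genes named on the array. RNA came from the lactating mammary gland of 6 goats, 3 with the Low and 3 with the High genotype of CSN1S1, the gene of alpha-s1-casein. All 6 goats had been deprived of food for 48 h. In the names of the scanned images Low goats carry the code FF, and High goats AA. Each of 3 pairs, A, B and C, set 1 Low goat against 1 High goat on a microarray with 2 dyes, Cy3 and Cy5, and a second array repeated each pair with the dyes exchanged, which left n = 3 pairs of different goats.

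A cell divides by passing through a fixed order of stages, and each step is switched on by cyclin-dependent kinases bound to their cyclins and held back by kinase inhibitors. Before DNA is copied, the origin recognition complex and CDC6 load the MCM helicase onto origins, CDC45 helps to activate it, and polymerases alpha, delta and epsilon then make the new strands. In mitosis, Aurora and Polo-like kinases, the spindle checkpoint (the BUB proteins), the anaphase-promoting complex and the centromere proteins sort the chromosomes. In the mammary gland, secretory cells multiply mainly during pregnancy, and in lactation most of them are differentiated and divide little.

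The cell cycle genes had no shared direction between Low and High goats. Of the 64 tested 59 lay within 0.1 of 0, as did 4815 of all 5321 genes tested. Each value is a log2 ratio with the Low goat on top: above 0 the Low goat of a pair gave the higher signal. Where 3 pair values follow each other they belong to pair A, pair B and pair C, in that order. Of the 80 genes, 64 were bright enough to test, and their median log2 ratio was -3.3e-05, against 0.0033 over all 5321 genes tested. As many members were above 0 as below, 32 each, and the mean ratios ran from -0.21 (POLD3) to 0.22 (GTSE1). At an adjusted p under 0.05 in limma's moderated test of the 3 pairs, 1 of the 64 passed, GTSE1, which was higher in Low goats, and 0 passed in the other direction. GTSE1 was in the rule by its own name, chosen with earlier results of these data known. No member that matched through a family passed. Over all 6733 probes tested 0.446% passed, 0.0297% higher and 0.416% lower in Low. At an unadjusted p under 0.05 there were 6 members, 3 higher and 3 lower, beside 11.3% of all probes (5.79% higher and 5.47% lower). The 6 members were GTSE1, MCM3 and POLD4 above 0, and POLD3, ORC6 and CDK5RAP2 below 0.

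**Figure D1:**
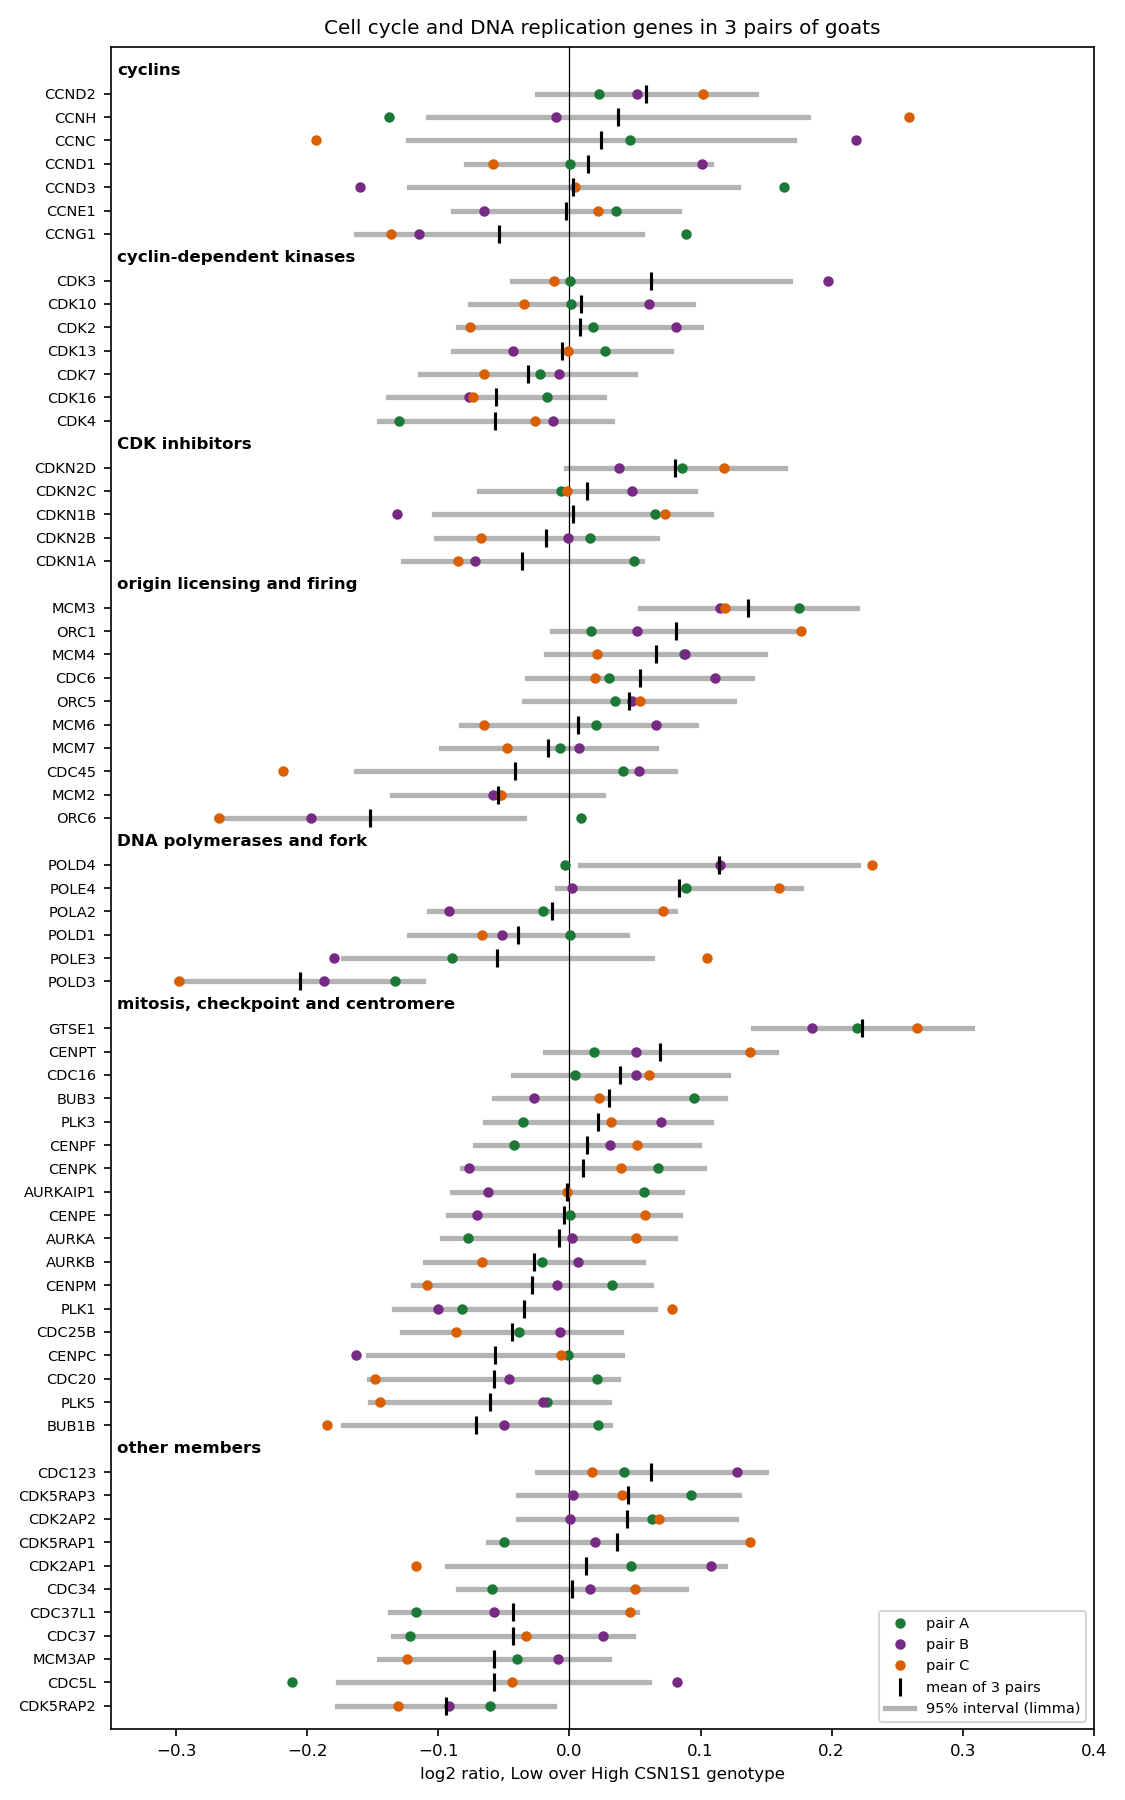
Log2 ratio of Low over High goats (x axis) for the 64 tested cell cycle genes, in groups by role and ordered by mean within each. Coloured points are the pairs A, B and C, the black tick is the mean of 3 pairs and the grey bar limma's pointwise 95% interval. GTSE1 at 0.22 and POLD3 at -0.21 lie at the ends. Of the 64 means 59 are within 0.1 of 0, as are 4815 of all 5321 genes tested.

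The pointwise 95% interval of limma lay within 0.322 of 0 on the log2 scale for 64 of the 64 members, and for 98.9% of all probes tested. That count depended on the settings, among them the background offset of 50, which draws ratios of dim probes towards 0. With an offset of 10, and also without pair A, it was 61. With the offset of 10 the intervals of GTSE1, ORC6 and POLD3 reached farther, that of ORC6 to 0.434 in size. Between pairs the members had a median SD of 0.064 on the log2 scale, and all genes tested one of 0.061. The members' median was 0.0065 in pair A, 0.00091 in pair B and -0.0015 in pair C. All 3 pairs gave the same sign for 24 of the 64 members, 14 above 0 and 10 below, and for 35.5% of all probes tested (18.6% above 0 and 16.9% below). Across the 64 members the pair ratios correlated at r = 0.20 for A and B, 0.16 for A and C, and 0.25 for B and C. Across all 5321 genes these were 0.38, 0.38 and 0.44. The 5321 include genes far from 0 in every pair, such as CSN1S1 at -2.57, -2.84 and -2.73. The part of such genes in the higher r was not tested. These correlations are descriptions across genes, which share arrays and are not independent replicates.

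The tissue label was checked on its own products and on markers of other cell types. CSN1S1 was lower in Low goats in every pair, at -2.57, -2.84 and -2.73 (limma adjusted p = 2.91e-09), in the direction of the genotype labels. The milk protein genes CSN1S1, CSN1S2, CSN3, LALBA and PAEP stood above background in all 12 dye readings. LALBA was at 0.68, 0.94 and 0.044, and PAEP at -0.71, 0.055 and -0.66, both with an unadjusted p under 0.05 in limma. CSN1S2 was at 0.75, 0.53 and -0.29, and CSN3 at 0.096, -0.32 and -0.080. The milk protein genes thus did not share one direction. In bulk tissue a change in the number of dividing cells and a change in the RNA of each cell cannot be told apart. Of 10 leukocyte markers 6 had a probe and 6 were tested, with a median ratio of -0.011 and a range from -0.16 (ITGB2) to 0.12 (CD68). None of these 6 passed at an adjusted p under 0.05 in limma, and 2 had an unadjusted p under 0.05. CD3E, a T cell marker, was at -0.025, -0.017 and -0.028, and CD79A, a B cell marker, at 0.017, -0.080 and -0.088. Fibroblast markers had a median of -0.11 over 3 tested of 6, at -0.029, -0.11 and -0.17. SPARC (-0.13) and VIM (-0.11) were below 0 in every pair with an unadjusted p under 0.05 in limma, and DCN was at 0.0031. The SPARC probe was dim, above background in 3 Low and 4 High readings of 6 each. Adipocyte markers had a median of -0.13 over 2 tested of 4, with LEP at -0.34, 0.10 and -0.57 (unadjusted p under 0.05 in limma) and ADIPOQ at 0.015. Luminal markers had a median of -0.016 over 4 tested of 6, with KRT19 at -0.13 (unadjusted p under 0.05), and endothelial markers one of -0.025 over 2 tested of 4. Apart from CSN1S1, none of the markers of any cell type passed at an adjusted p under 0.05 in limma. The part of these cell types in the values of the cell cycle genes was not tested.

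More cell cycle genes gave a signal in Cy5 than in Cy3, as did genes of the whole array. A reading, 1 dye channel of 1 array, was counted as above background when a probe's signal exceeded the local background by 2 SDs of that background. In Cy5, 63, 63 and 66 of the 80 members were above background in the Low goats, against 62, 65 and 67 in the High goats. In Cy3 the counts were 54, 53 and 53 in Low goats, against 47, 56 and 61 in High goats. The Cy5 counts of both genotypes were above all Cy3 counts, and within a dye the genotypes overlapped. Over all genes of the array 83.5% to 88.1% were above background in Cy5 readings and 67.7% to 78.6% in Cy3 readings, so the dye split was not particular to the cell cycle genes. The members' share was below the share of all genes in each of the 12 readings, a difference that was not tested. Of the 80 members, 44 were above background in all 12 readings and 20 more in 6 to 11. The 16 others were not tested: 5 were above background in 1 to 5 readings and 11 in none.

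**Figure D2:**
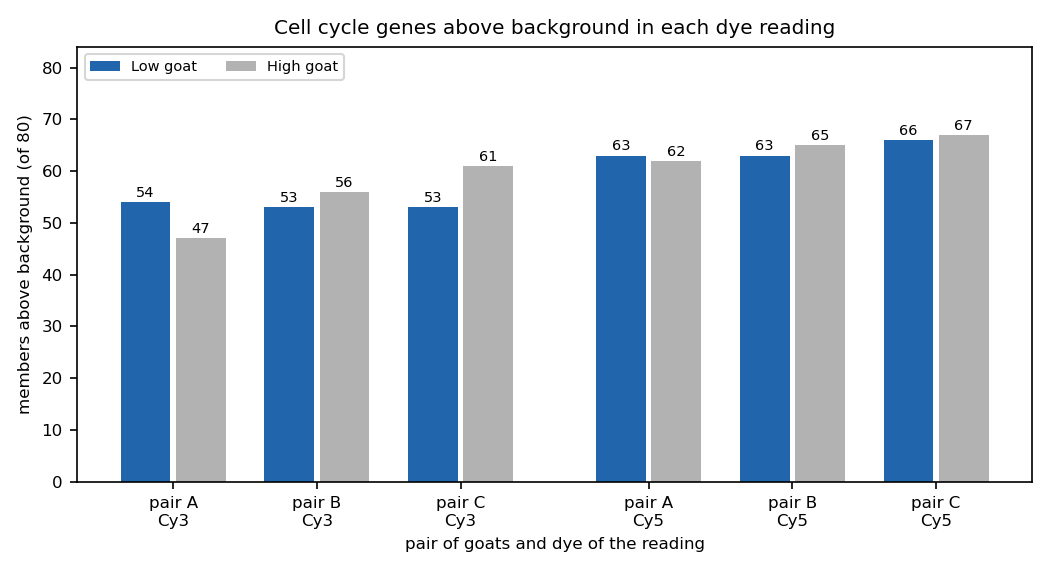
Number of the 80 cell cycle genes above background (y axis) in each of the 12 dye readings, with the Low goat left of the High goat of each pair, Cy3 readings on the left and Cy5 readings on the right. Cy5 readings hold 62 to 67 genes and Cy3 readings 47 to 61, in goats of both genotypes, and all genes of the array split by dye too, at 83.5% to 88.1% in Cy5 and 67.7% to 78.6% in Cy3.

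The 11 genes that were not well above background in any reading were CCNB1, the cyclin of mitotic entry, CCNE2, CDK5, CDK12, CDK17, BUB1, CDC23, CDC26, CENPS, CENPV and CDC40. Single readings of High goats passed for CDKN2AIP, POLE2 and CENPQ. CDC14B, a mitotic exit phosphatase, passed in 1 Low and 4 High readings, and CDK5R1, an activator of CDK5, in 2 Low and 3 High readings. These readings give no level for the 11 genes, and other mitotic genes such as AURKB, CDC20, PLK1 and CENPE were above background in all 12. The tested members that were dim in some readings, 20 in number, had a median SD between pairs of 0.070, beside 0.063 for the 44 that were bright in all.

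GTSE1 encodes a microtubule-binding protein made in the S and G2 stages that, in human cells, binds p53 and helps to keep p21 stable. Its probe was bright, with signals in Low goats of 1612, 782 and 820 intensity units in Cy5 and 1526, 1249.5 and 1155 in Cy3. In High goats it read 1404, 754 and 547 in Cy3 and 1259, 1009.8 and 1169 in Cy5, before background correction and normalization. The genotypes overlapped over all readings, and within an array the Low goat read higher on 5 of 6, the exception being pair C with its Low goat in Cy3. With the Low goat in Cy5 its log2 ratio was 0.091, 0.13 and 0.40, and with the dyes exchanged it was 0.35, 0.24 and 0.13. All 6 arrays were thus above 0, with a mean of 0.21 with the Low goat in Cy5 and 0.24 with it in Cy3. GTSE1 was the single member of 64 with the same sign on all 6 arrays, where 2.99% of all probes tested had one.

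Averaged over the dyes, GTSE1 was at 0.22, 0.19 and 0.27, a mean of 0.22 ± 0.040 (SD, n = 3). The signal of Low goats was thus 1.17-fold higher (limma adjusted p = 0.0385, 95% interval 0.14 to 0.31). Its 2 spots on an array were nearly equal in places, at 0.35 and 0.35 on the pair A array with the Low goat in Cy3 and 0.39 and 0.41 on the pair C array with it in Cy5. They were farthest apart in pair B with the Low goat in Cy5, at 0.055 and 0.21. The direction held in 13 of 13 alternative settings, with means between 0.16 and 0.25, but the call held in 4 of them. With no dim filter, all 12 readings, the dye term or all probes averaged, the ratio itself stayed the same. Leaving out a pair could not reverse it either, since all 3 pairs were above 0. Of the settings that kept the call, median centring alone changed the ratio, to 0.25. Leaving out a pair ended the call each time, at a limma adjusted p of 0.0676 without A, 0.149 without B and 0.111 without C.

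**Figure D3:**
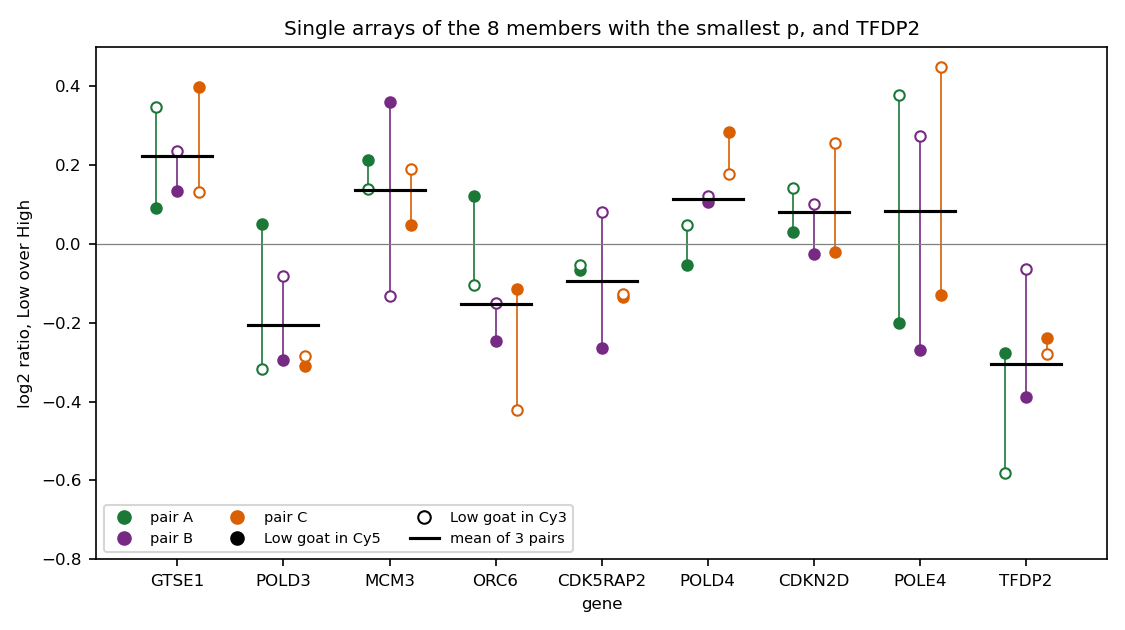
Log2 ratio of Low over High (y axis) on each of the 6 arrays for the 8 cell cycle genes with the smallest p and for TFDP2. Filled points have the Low goat in Cy5 and open points in Cy3, lines join the 2 arrays of a pair and black bars are the means of 3 pairs. GTSE1 lies above 0 and TFDP2 below 0 on 6 of 6 arrays, and each of the other genes has arrays on both sides.

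The DNA polymerase subunits spread to both sides of 0, and 2 subunits of polymerase delta had the opposite sign. Of 7 such genes 6 were tested and 0 passed in limma, with 2 at an unadjusted p under 0.05 and a group median of -0.026. POLD3, an accessory subunit of polymerase delta, was at 0.051, -0.29 and -0.31 with the Low goat in Cy5 and at -0.32, -0.080 and -0.28 with it in Cy3. It was below 0 on 5 of the 6 arrays, all but the pair A array with the Low goat in Cy5. Its pair means of -0.13, -0.19 and -0.30 averaged -0.21 ± 0.084 (SD, n = 3), which missed the threshold (limma adjusted p = 0.113).

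POLD4, the smallest subunit of the same polymerase, was at 0.11 ± 0.12 (SD, n = 3), with 0.23 in pair C, 0.11 in pair B and -0.0032 in pair A (limma adjusted p = 0.415). Without pair A its mean was 0.17, without B 0.11 and without C 0.056, and with print-tip loess it was 0.062. POLD1, the catalytic subunit, was at -0.039, with 0.00028, -0.052 and -0.067. Whether the subunits differ from each other was not tested. POLE4, a histone-fold subunit of polymerase epsilon, gave -0.20, -0.27 and -0.13 with the Low goat in Cy5 and 0.38, 0.27 and 0.45 with it in Cy3. The dye set the sign on every array of this gene, and its mean was 0.084 ± 0.079 (SD, n = 3). POLE3, its histone-fold partner, was dim (4 of 6 readings in each genotype) and varied most within the group, with -0.090, -0.18 and 0.10 in the 3 pairs. POLA2, the regulatory subunit of polymerase alpha, was at -0.014.

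All 10 genes of origin licensing and firing were bright enough to test, and 0 of them passed in limma, with 2 at an unadjusted p under 0.05 and a group median of 0.026. Among the MCM helicase subunits, MCM3 was at 0.18, 0.12 and 0.12, a mean of 0.14 ± 0.034 (SD, n = 3; limma adjusted p = 0.267). On single arrays MCM3 gave 0.21, 0.36 and 0.047 with the Low goat in Cy5 and 0.14, -0.13 and 0.19 with it in Cy3, so 5 of 6 arrays were above 0. Its probe was dim, above background in 5 Low and 4 High readings of 6 each. The other subunits did not share one direction: MCM4 was at 0.066 and MCM6 at 0.0069, while MCM2 was at -0.055 and MCM7 at -0.016. The 3 pairs of MCM2 lay close together, at -0.054, -0.058 and -0.052, but its sign on single arrays followed the dye. With the Low goat in Cy5 MCM2 gave 0.12, 0.061 and 0.10, and with it in Cy3 -0.22, -0.18 and -0.21. The MCM2 probe was dim, above background in 5 Low and 3 High readings.

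The subunits of the origin recognition complex were split as well. ORC6 was at 0.0085, -0.20 and -0.27, a mean of -0.15 ± 0.14 (SD, n = 3; limma adjusted p = 0.348). It was dim, above background in 2 Low and 4 High readings of 6 each, and below 0 on 5 of 6 arrays. Its mean moved to -0.25 with a background offset of 10 and to -0.23 without background correction. Leaving out a pair gave -0.23 without A (limma adjusted p = 0.0552), -0.13 without B and -0.094 without C. ORC1, a subunit that binds ATP and chromatin, was at 0.016, 0.052 and 0.18, and ORC5 at 0.035, 0.048 and 0.054, all above 0. On single arrays the sign of ORC5 followed the dye. CDC6, the loader of the MCM helicase, was at 0.053, with 0.11 in pair B. The CDC6 probe was dim, above background in 5 Low and 4 High readings, and its sign on single arrays followed the dye. CDC45, the helicase partner, gave 0.041, 0.053 and -0.22, with pair C apart from the others. It was among the 3 members with the largest dye effect, at 0.49, 0.47 and -0.025 with the Low goat in Cy5 and -0.41, -0.36 and -0.41 with it in Cy3.

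Cyclins had the largest median SD between pairs of all role groups, 0.12 over the 7 tested of 9, beside 0.064 over all tested members, a difference that was not tested. None passed in limma and 0 had an unadjusted p under 0.05. CCNC, the cyclin of the Mediator kinase, had the largest SD of all members, with 0.046, 0.22 and -0.19 (0.024 ± 0.21, SD, n = 3). Both arrays of pair B were above 0 for CCNC, at 0.27 and 0.17, and both arrays of pair C below 0, at -0.17 and -0.22. CCNH, which activates CDK7, was at -0.14, -0.010 and 0.26, with both arrays of pair C above 0 and both arrays of pair A below 0. CCND3 was at 0.16, -0.16 and 0.0046, and its probe was above background in 3 of 6 readings in each genotype, as was that of CCNC.

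The other D-type cyclins, which carry growth signals into the G1 stage, were steadier. CCND1 was at 0.000058, 0.10 and -0.058. CCND2 was above 0 in all 3 pairs, at 0.023, 0.052 and 0.10 (mean 0.059 ± 0.040, SD, n = 3; limma adjusted p = 0.567), but its sign on single arrays followed the dye. CCNE1, which starts S phase with CDK2, was at -0.0026, and CCNG1, a p53 target, at 0.089, -0.12 and -0.14.

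Among the cyclin-dependent kinases, 7 of 10 were tested and 0 passed in limma or had an unadjusted p under 0.05. CDK4, the partner of the D-type cyclins, was at -0.13, -0.013 and -0.026 (mean -0.057 ± 0.064, SD, n = 3), and CDK16 at -0.017, -0.077 and -0.074. CDK7, the CDK-activating kinase, was at -0.032. These 3 kinases were below 0 in all 3 pairs, and none of the 7 was above 0 in all. Of all probes tested 16.9% were below 0 and 18.6% above 0 in all 3 pairs. On single arrays the sign of CDK7 followed the dye. CDK2 (0.0078), CDK10 (0.0091), CDK13 (-0.0057) and CDK3 (0.062) had pairs on both sides of 0. A second probe of CDK7 was not well above background in any reading.

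The kinase inhibitors gave 5 tested genes of 6, 0 of which passed in limma or had an unadjusted p under 0.05. CDKN2D, the p19 inhibitor of CDK4 and CDK6, was above 0 in each pair, at 0.086, 0.038 and 0.12 (mean 0.081 ± 0.040, SD, n = 3; limma adjusted p = 0.451). CDKN1A, the p21 protein induced by p53, was at 0.049, -0.072 and -0.085, and CDKN1B, the p27 inhibitor, at 0.066, -0.13 and 0.073. CDKN2C was at 0.013. CDKN2B, the p15 inhibitor, had the largest dye effect of all members. With the Low goat in Cy5 it gave 0.30, 0.38 and 0.33, and with the Low goat in Cy3 -0.27, -0.38 and -0.47, and these averaged to -0.018 ± 0.044 (SD, n = 3). The sixth, CDKN2AIP, was placed here by its name and binds a product of the CDKN2A locus rather than a kinase.

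In the mitosis, checkpoint and centromere group GTSE1 passed and the other 17 of 18 tested genes did not, with a group median of -0.0062. Of the 25 genes in it, 7 were too dim. CENPT, which links centromeres to the kinetochore, came next to GTSE1 at 0.019, 0.051 and 0.14 (mean 0.069 ± 0.062, SD, n = 3; limma adjusted p = 0.521), but at -0.0063 with print-tip loess. CDC16, a subunit of the anaphase-promoting complex, was above 0 in each pair, at 0.0045, 0.051 and 0.061, while its single arrays ran from -0.35 to 0.45 with the dye. The mitotic kinases were near 0, AURKA at -0.0082, AURKB at -0.027 and PLK1 at -0.034. A dimmer second probe of AURKA was at 0.060, so its 2 probes differed by less than 0.2. At the lower end BUB1B, a spindle checkpoint kinase, was at 0.022, -0.050 and -0.18 (mean -0.071), and CDC20, the activator of the anaphase-promoting complex, at 0.021, -0.046 and -0.15 (mean -0.058). Both means rest largely on pair C. PLK5 had a mean of -0.061 and CENPC, a centromere scaffold protein, one of -0.057, with -0.16 in pair B. CDC25B, a phosphatase that activates the mitotic kinase, was below 0 in all 3 pairs at -0.038, -0.0072 and -0.086. BUB3, a partner of BUB1B, had a mean of 0.030 and PLK3 one of 0.022. CENPE, CENPF, CENPK and CENPM lay between -0.029 and 0.013. AURKAIP1, at -0.0022, matched by name and is known as a mitochondrial ribosome protein.

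The last 13 genes matched the name patterns without being core cell cycle genes, and 11 were tested. CDK5RAP2, a centrosome protein that anchors microtubule nucleation, was below 0 in each pair, at -0.060, -0.092 and -0.13 (mean -0.094 ± 0.035, SD, n = 3; limma adjusted p = 0.396). It was below 0 on 5 of 6 arrays, all but the pair B array with the Low goat in Cy3. CDC123, which helps to assemble the translation factor eIF2, was at 0.042, 0.13 and 0.017. Its probe was dim, above background in 5 Low and 3 High readings, and its sign on single arrays followed the dye. CDC5L, a splicing protein, varied most, at -0.21, 0.082 and -0.044. CDC37, the HSP90 partner for kinases (-0.043), CDC34, a ubiquitin-conjugating enzyme (0.0021), and MCM3AP, an mRNA export factor (-0.058), did not pass either. The group median was 0.0021, and 1 of the 11 had an unadjusted p under 0.05.

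For most members the dye moved a single array more than the genotype did. The dye effect is how far the ratio on either array lay from the mean of its pair, positive when a gene reads higher with the Low goat in Cy5. It was larger in size than the genotype difference for 47 of 64 members, where it was for 74.4% of all probes tested. Its median size was 0.10 over the members, beside a median genotype difference of 0.042. It was shared between pairs across the 64 members, with r = 0.79 for A and B, 0.73 for A and C, and 0.69 for B and C, and the mean of the 2 arrays of a pair removes the part that is equal on both. The largest were those of CDKN2B (0.35), CDC45 (0.35) and CDC16 (-0.34). GTSE1 (-0.016), POLD3 (0.021) and POLD4 (-0.0014) had mean dye effects near 0, over pairs of opposite sign. In pairs A, B and C the dye effect was -0.13, -0.051 and 0.13 for GTSE1 and 0.18, -0.11 and -0.013 for POLD3.

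**Figure D4:**
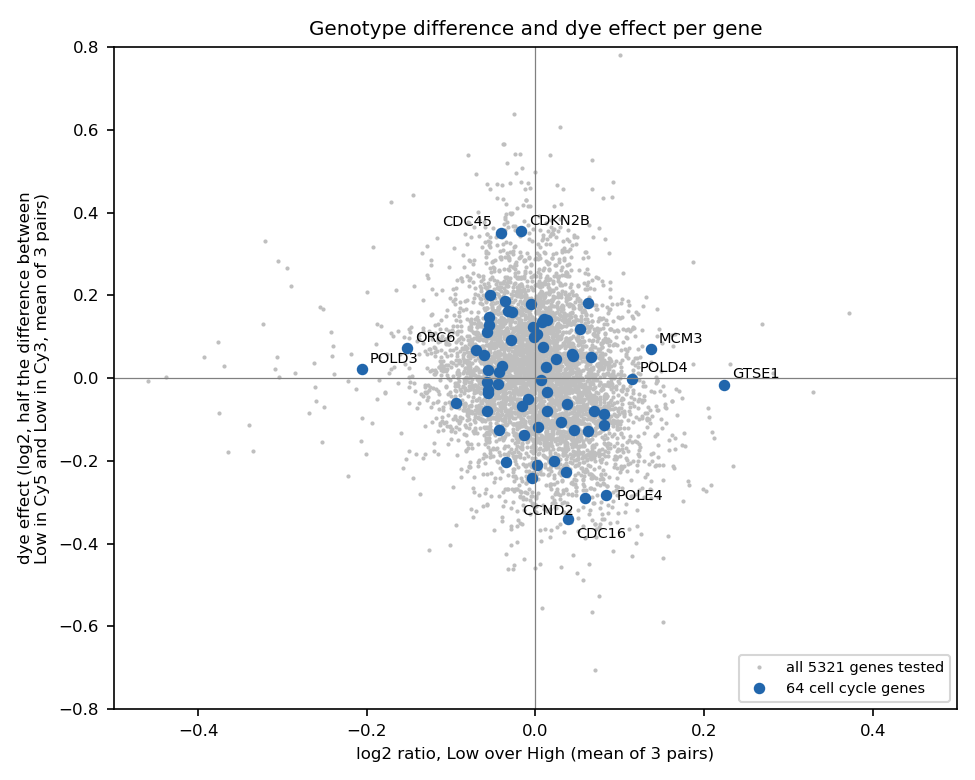
Mean log2 ratio of Low over High (x axis) against mean dye effect on the log2 scale (y axis), for the 64 cell cycle genes in blue and all 5321 genes tested in grey, of which 11 lie outside the axes. GTSE1 and POLD3 lie far from 0 in genotype and near 0 in mean dye effect, and CDKN2B, CDC45 and CDC16 the other way round. The dye effects of GTSE1 and POLD3 in single pairs had both signs.

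Of 56 other genes tested in 3 lists of the same processes 1 passed, TFDP2, which was lower in Low goats. Of all probes tested 0.416% were called lower and 0.446% in either direction. The lists were chosen with earlier results of these data known, so setting these shares side by side does not test the lists. TFDP2 encodes a partner with which E2F factors bind DNA at genes of S phase entry. It was at -0.28, -0.39 and -0.24 with the Low goat in Cy5, and with the dyes exchanged at -0.58, -0.064 and -0.28, so all 6 were below 0. Its pair means of -0.43, -0.23 and -0.26 averaged -0.30 ± 0.11 (SD, n = 3), so the signal of Low goats was 1.24-fold lower (limma adjusted p = 0.0243). It was above background in 5 Low and 6 High readings of 6 each. The call held in 10 of 12 alternative settings, with adjusted p of 0.0583 with a smaller background offset and 0.0508 without pair B.

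The remaining genes of that list of G1 and checkpoint control did not pass. It had 20 tested genes of 21 on the array and a median of 0.00010, with E2F1 at 0.046, E2F4 at 0.024, TFDP1, the paralog of TFDP2, at -0.049, and MYC at -0.058. Of 17 further genes of DNA replication and nucleotide supply 14 were tested, with a median of 0.021. In limma 0 of them passed and 1 had an unadjusted p under 0.05, TOP2B, a topoisomerase, at 0.10, followed by FEN1, the flap nuclease of lagging strand synthesis, at 0.086. Of 27 further mitosis genes 22 were tested, with a median of 0.0039. Here 0 passed and 2 had an unadjusted p under 0.05, CDCA3 at -0.12 and ANAPC11, a subunit of the anaphase-promoting complex, at -0.10.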

How the data were processed

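Per the labels' protocols, 5 µg of total RNA per sample was labelled directly with Cy3 or Cy5, and scans were read with ImaGene (6.0 per the labels, 6.0.1 per the file headers). The deposited files give signal and background intensity of 19200 spots per dye, background not subtracted, of which 16758 carry 8379 probes, 2 spots each. A deposited table of the whole series gives 1 log2 value per spot and array, made by the authors. Its scale and its direction (Low over High) were settled against the scanner files, where its correlation with the log2 signal ratio within 20 intensity bins was at least 0.965, and its column medians lie between -0.015 and 0.0034. How the authors normalized it is not stated in the labels or headers.

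Intensities were corrected with normexp (offset 50) and 1 loess curve per array in limma 3.58.1 (R 4.3.3). Spots with flags 1 or 3 were left out, 26 to 67 per array. Median signal over background was 2.67 to 6.00 per reading. Spots of a probe, then the 2 arrays of a pair, were averaged. A probe was tested when above background by 2 SDs in at least 6 of 12 readings with a value on every array (6733 probes). Limma's moderated test asked whether the 3 pair means differ from 0. Its p-values were adjusted by Benjamini-Hochberg over all tested probes, with a threshold of 0.05. The pooled spread has 7.47 degrees of freedom against 2 of a probe's own. The number of pairs limits precision. The procedure was tested on simulated data.

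Symbols come from the platform annotation, which gives 1 symbol to 6840 probes, more than 1 to 93 and no symbol to 1446. Of the 80 members 79 are also goat symbols in assembly ARS1.2, all but CENPS. Members and lists were chosen with earlier results of these data known. Members were named with values where they passed, had one of the 8 smallest p, the 3 largest means with the same sign on all 6 arrays in either direction (a single member qualified), the 3 largest SDs or dye effects, or the 2 smallest p of a role group. Other members were named, for completeness of their complexes, after their values were seen. Probes of 1 gene were examined for a difference over 0.2. Alternatives covered background, normalization, the deposited series table, flags, filters, the dye model, the probe of a gene and each pair left out. No sequence is printed, since probe sequences were not used here.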

Additional observations from a re-analysis of the deposited data

Results flagged for a closer look

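Over the 6 arrays of each of the 64 tested members and TFDP2, 65 genes in all, a single array stood apart from the others for 1 gene. At a chance rate of 1 in 20, 3.25 genes would be expected, so the count was not above it. That rate takes the 6 arrays as 1 sample, although the dyes were exchanged between the arrays of a pair. The gene was CDKN1B, the p27 kinase inhibitor, with a log2 ratio of -0.31 on the pair B array with the Low goat in Cy3. The nearest other array was at -0.019, and the cause was not tested.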

How the results depend on the processing

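Over 279 comparisons of the 22 rule-named genes (TFDP2 included) with an alternative, direction and side of the threshold held in 257. A sign reversed in 10, a call was lost in 11 and gained in 1. Many comparisons could not reverse a sign. Ratios stayed the same with no dim filter, all 12 readings, the dye term or all probes averaged. Where all 3 pairs shared a sign, leaving out a pair kept it. Most of these genes were also not called at first, so they had no call to lose. The direction of GTSE1, POLD3, MCM3, ORC6 and TFDP2 held throughout, while the mean of ORC6 ran from -0.25 to -0.094 and that of POLD4 from 0.056 to 0.17. In limma 1 member was called, and 0 with no background correction, offset 10, print-tip loess, the series table, no flagged spot left out, no dim filter, and without each pair (0 to 0), with 5 to 8 members at an unadjusted p under 0.05. With median centring 2 were called, GTSE1 and POLD3 (adjusted p = 0.0482). GTSE1 also passed above background in all 12 readings, with a dye term and the pair as a random block, and with all probes of a gene averaged. Its adjusted p ran from 0.0136 to 0.149. Calls over the array were 19 with offset 10, 59 with the dye term, and 24 to 67 without a pair, against 30. The members' median was -0.0069 without background correction, 0.0082 with median centring, -0.0071 in the series table, -0.0049 over members bright in all 12 readings, and -0.0053 to -0.0042 without a pair. Signs reversed for ratios that were not called: CCND3 (-0.051) and CENPT (-0.0063) with print-tip loess, CCNC (-0.0088), CCND3 (-0.048) and CDKN1A (0.0032) with median centring, CCND3 without pair A (-0.078), CCNC without pair B (-0.074), and CCNH (-0.074), CDKN2B (0.0073) and CDC45 (0.047) without pair C. Leaving out a pair, the ranges were -0.078 to 0.084 for CCND3, -0.074 to 0.13 for CCNC, -0.074 to 0.12 for CCNH, -0.034 to 0.0073 for CDKN2B and -0.089 to 0.047 for CDC45. The causes were not tested. Of the other 43 tested members 25 changed sign in at least 1 of 13 alternatives and 0 were called in any (lowest adjusted p 0.360). Dim probes and 3 pairs limit what these values can show.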
